A study of Mus musculus with 6 samples.

Results

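The transcripts of 33 mouse genes for the breakdown of glycans and lipids in lysosomes were followed in bone marrow-derived macrophages (BMDM), phagocytes grown in culture from marrow precursors. The genes were taken by symbol from a fixed list, and all 33 were found among the 55291 genes of the deposited table. By the role of their product, 13 act on sugar chains, 5 on sulfate groups and 7 on lipids, 4 are activator or sterol transfer proteins, and 4 have other lysosomal roles. The list name covers hydrolases, but Hgsnat is an acetyltransferase, and progranulin (Grn) and the activator and transfer proteins are not enzymes. Of the 6 poly(A) RNA libraries, 3 came from BMDM that had been given apoptotic cells (AC) beforehand and 3 from BMDM without them. Where the apoptotic cells came from, their dose and the time of exposure are open (not given in the sources used here), as are the strain, age, sex and genotype of the mice. The labels do not tie the replicates to different mice or dishes. A p-value therefore speaks to the spread among these 6 libraries, part of which can be technical.

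Lysosomes digest what a phagocyte takes up, and an engulfed cell brings glycoproteins, glycosaminoglycans, glycosphingolipids, phospholipids and sterol esters. Exoglycosidases remove sugars from chain ends in a fixed order, sulfatases take off the sulfate groups that block them, and lipid hydrolases work with small activator proteins that lift lipids out of the membrane. Loss of single members of this set causes lysosomal storage disease in humans and mice. Many lysosomal genes carry CLEAR elements, E-box sequences bound by the transcription factor TFEB and its relatives.

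A level in TPM is the share of a gene among all transcripts corrected for length, with every library brought to a sum of 1000000. A difference is the AC mean minus the untreated mean of log2(TPM + 1), given ± its SE or with its 95% interval from limma-trend. P-values are adjusted by Benjamini-Hochberg over all tested genes. The libraries held between 19330350 and 32649089 reads on genes with a matched length. Each member had at least 355 reads in each library. All 10 macrophage markers were above 1 TPM in some library, with summed levels of 23480 to 27130 TPM in AC libraries and 17210 to 25340 TPM in untreated libraries. The low end is untreated replicate 1, where Lyz2 stood at 83.7 TPM, against 9270 to 12451 TPM in the other libraries. The cause of this gap was not tested. Of 12 thymocyte and T cell markers 11 stayed below 1 TPM in all libraries, and 3 (Cd3d, Cd8b1 and Themis) were at 0 throughout. The remaining marker, Cd4, stood at 9.48 to 16.8 TPM. Placental transcripts summed to 38.4 and 180 TPM in AC replicates 1 and 2 and to 19.6 and 42.1 TPM in untreated replicates 1 and 2, against 0.211 TPM in AC replicate 3 and 0.232 TPM in untreated replicate 3. Some values are therefore repeated within replicates 1 and 2, called the placental libraries here, and for replicate 3 of each group. A fit over all 6 libraries with these transcripts as a term (present or not), added after seeing the data, called 0 genes and 0 members by limma, with 227 genes and 0 members at an unadjusted p under 0.05.

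No member passed the test for a difference between AC and untreated libraries. Of 33 members, 0 passed an adjusted p of 0.05 by limma-trend, each with an adjusted p of 1.0, as did 0 of all 12603 tested genes (0.0%). At an unadjusted p under 0.05 there were 0 members, against 164 of all tested genes (1.3%). That share of all tested genes depended on single libraries. It was 0.841% without untreated replicate 1 and 6.32% without AC replicate 1, with 0 members in both fits. Without AC replicate 1 the lowest adjusted p of a member was 0.775 by limma. In no member did the AC and untreated values separate over all 6 libraries, whereas the groups did not overlap for 4.42% of all tested genes. The 95% interval of the difference lay inside 2-fold for all 33 members and inside 1.5-fold for 28 of them. Over all tested genes these shares were 87.4% and 46.1% at a median SE of 0.21 log2 units, against 0.15 for the members. The mean was higher in AC libraries for 10 members and lower for 23, where 29.4% of all tested genes were higher and 70.6% lower. Median-of-ratios scaling moved the members alike, by a median of 0.07 log2 units, which gave 19 higher and 14 lower members. Over all tested genes the split was then 47.4% higher and 52.6% lower, with a median of -0.01. The signs of members near 0 thus depend on the scaling. In bulk RNA, fewer cells of a type and less RNA per cell cannot be told apart.

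Together the members made up 2.37 to 2.53% of TPM in the 6 libraries. Their sum was 24506, 24778 and 24625 TPM in AC replicates 1, 2 and 3 and 25305, 23958 and 23678 TPM in untreated replicates 1, 2 and 3. The AC values lay inside the untreated range. Levels ran from Psap, the precursor of the saposins, at 10716 to 12679 TPM, through Grn, Hexa and Npc2 above 1000 TPM, down to Arsb at 9.88 to 17.97 TPM. For 13 members an exon overlaps that of another gene, among them Hexa, Grn, Acp2, Sgsh, Npc1 and Arsb, and with the strand setting of the counting unknown such reads are uncertain.

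**Figure D1:**
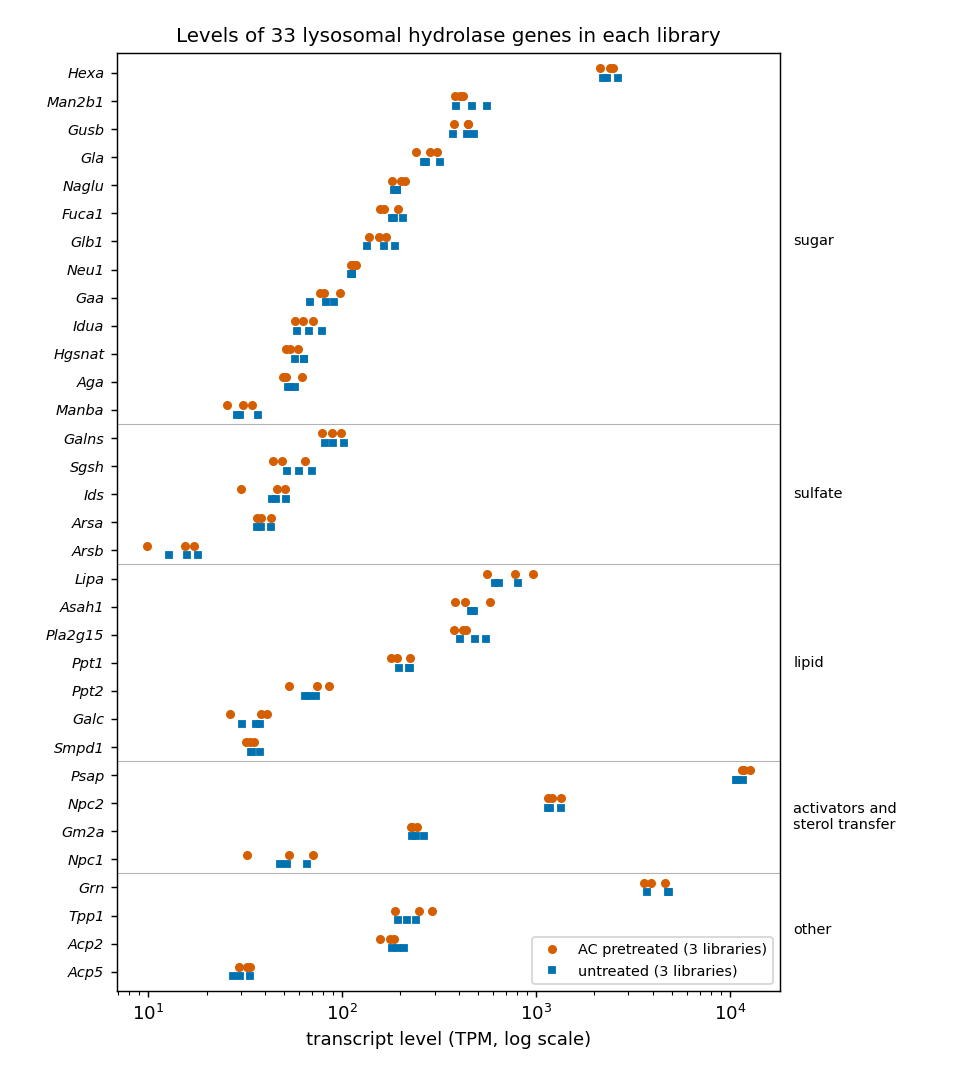
Transcript level (TPM, log axis) of the 33 members in the 3 AC libraries (circles) and the 3 untreated libraries (squares), ordered by class and level. The ranges of both groups overlap in every row, and Psap and Arsb mark the ends of the range.

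Promoters were read from RefSeq (GRCm38.p6) for 28 of the 33 members, from 250 bases before to 50 after each start. The E-box core CACGTG, which reads the same on both strands, was present for 6 of the 28 (21.4%). It was present for 12.2% of the 9012 tested genes with a promoter and 8.09% of all 27025 genes with one. The longer form TCACGTGA, also its own reverse complement and overlapping the core, was present for Gla alone (3.57%). The shares were 2.44% of these tested genes and 1.12% of all genes with a promoter. The Gla promoter is shown whole because it holds this longer form in 2 copies, at 227 and 194 bases before the start for the first base of the core, written in capitals (chrX:134600956-134601255, minus strand, 5′ to 3′).

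Gla: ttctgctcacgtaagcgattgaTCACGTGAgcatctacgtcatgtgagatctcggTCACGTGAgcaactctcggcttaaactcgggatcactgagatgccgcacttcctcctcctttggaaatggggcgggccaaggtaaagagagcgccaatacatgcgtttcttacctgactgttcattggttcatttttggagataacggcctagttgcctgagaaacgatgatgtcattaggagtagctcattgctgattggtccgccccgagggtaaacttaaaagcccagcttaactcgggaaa

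For the other 5 members with a core, chosen after values were seen, 30 bases around it are shown with the core in capitals, to compare the flanking letters. They lie at chr9:114401018-114401047 (plus strand) for Glb1, chr11:101070009-101070038 (plus strand) for Naglu, chr11:119267811-119267840 (plus strand) for Gaa, chr11:119355522-119355551 (minus strand) for Sgsh and chr15:89477423-89477452 (minus strand) for Arsa.
Glb1: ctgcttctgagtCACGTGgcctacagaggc
Naglu: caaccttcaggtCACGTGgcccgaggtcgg
Gaa: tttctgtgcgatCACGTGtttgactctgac
Sgsh: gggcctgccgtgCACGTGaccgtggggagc
Arsa: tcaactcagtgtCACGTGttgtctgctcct

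The 6 members with a core had log2 differences between -0.21 (Sgsh) and 0.07 (Gaa), with a median of -0.02. The 22 without a core in this window had a median of -0.07. A match is a description of letters and not a binding site, and neither group held a gene that passed the test.

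None of the sugar-chain members stood apart between the groups. Of 13, 3 had a higher and 10 a lower mean in AC libraries, with a median log2 difference of -0.05. The median over all tested genes was -0.07. With the common shift of median-of-ratios scaling, the split was 8 higher and 5 lower and the median 0.02, against -0.01 over all tested genes. All 13 intervals lay inside 1.5-fold.

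Hexa (chromosome 9, 59539540 to 59565109), the alpha subunit of beta-hexosaminidase, which cuts GM2 ganglioside, had 2486, 2414 and 2145 TPM in AC libraries. In untreated libraries it had 2321, 2226 and 2653 TPM. Untreated replicate 3 was the highest of the 6 libraries and AC replicate 3 the lowest, and the difference was -0.03 ± 0.15 (95% interval -0.36 to 0.30). Man2b1 (chromosome 8, 85083270 to 85098282), the lysosomal alpha-mannosidase of N-glycan breakdown, had 383, 407 and 420 TPM in AC libraries against 558, 470 and 389 TPM in untreated libraries. Its untreated values were spread over a wider range, down into that of the AC values. The difference of -0.21 ± 0.16 was the lowest of the class and ranged from -0.35 to -0.09 on leaving out 1 library. It was -0.37 within the placental libraries.

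Naglu (chromosome 11, 101070012 to 101077672), which removes N-acetylglucosamine from heparan sulfate and has an E-box core in its promoter, had 180, 211 and 202 TPM in AC libraries and 193, 192 and 185 TPM in untreated libraries. AC replicate 1 was the lowest of all 6 and the other AC libraries the highest, for a difference of 0.06 ± 0.13. Neu1, the lysosomal sialidase, was the steadiest of the class, at 115 ± 3.78 TPM in AC libraries and 112 ± 0.531 TPM in untreated libraries (SD, n = 3 each). Its 95% interval ran from -0.24 to 0.30.

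Several glycosidases of glycosphingolipid and glycosaminoglycan breakdown stood at middle levels. Gla, the alpha-galactosidase that acts on globotriaosylceramide and whose promoter is printed in full, had 240, 307 and 283 TPM in AC libraries and 264, 271 and 321 TPM in untreated libraries. Gusb, the beta-glucuronidase, had 378, 449 and 444 TPM in AC libraries against 481, 374 and 440 TPM in untreated libraries. In both genes AC and untreated values were interleaved. Glb1, the beta-galactosidase, averaged 154 ± 15.6 TPM in AC libraries and 162 ± 27.0 TPM in untreated libraries, and it shares exon sequence with Tmppe on the same strand, so its reads are uncertain. Fuca1, the alpha-fucosidase, averaged 173 ± 19.9 TPM in AC libraries and 191 ± 14.1 TPM in untreated libraries. Gaa, the acid alpha-glucosidase that degrades glycogen, averaged 84.9 ± 10.9 TPM in AC libraries and 80.8 ± 11.7 TPM in untreated libraries.

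The lower sugar members were Idua (alpha-iduronidase), Hgsnat, Aga and Manba (beta-mannosidase). Hgsnat, which acetylates heparan sulfate so that Naglu can act on it, had 51.3, 59.5 and 54.2 TPM in AC libraries and 63.3, 63.9 and 57.5 TPM in untreated libraries. AC replicate 2 lay above untreated replicate 3, and the difference was -0.16 ± 0.13. Idua had 57.4, 70.5 and 62.9 TPM in AC libraries and 79.1, 67.6 and 58.7 TPM in untreated libraries. Manba had 25.6, 30.8 and 34.4 TPM in AC libraries and 37.0, 28.8 and 29.6 TPM in untreated libraries. In both, untreated replicate 1 was the highest and the remaining values overlapped. Aga, which cuts the bond between a glycan and asparagine, averaged 54.5 ± 6.65 TPM in AC libraries and 54.9 ± 2.46 TPM in untreated libraries.

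The sulfatases lie at the low end of the members, between 9.88 and 102 TPM. All 5 had lower means in AC libraries, with a median log2 difference of -0.14, but 2 of them, Arsa and Galns, turned to higher means with median-of-ratios scaling, where the class median was -0.08. For 4 of the 5, AC replicate 1 was the lowest library, and for 4 untreated replicate 1 was the highest. Without AC replicate 1 the class median was 0.04, and without untreated replicate 1 it was -0.04. It was -0.18 within the placental libraries, and 0.12 for AC replicate 3 minus untreated replicate 3.

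Sgsh (chromosome 11, 119343425 to 119355536), the sulfamidase of heparan sulfate, had 43.8, 49.2 and 64.1 TPM in AC libraries against 69.7, 59.7 and 52.1 TPM in untreated libraries. AC replicate 3 was the second highest of the 6, so the groups overlapped, and the difference was -0.21 ± 0.18. Within the placental libraries Sgsh was the only member with an unadjusted p under 0.05, at a difference of -0.46 with an adjusted p of 0.891 by limma. In that fit 4.75% of all tested genes had an unadjusted p under 0.05, so 1 of 33 members is no more than the background. Ids, the iduronate sulfatase, had 30.2, 50.9 and 46.2 TPM in AC libraries and 45.5, 43.5 and 51.6 TPM in untreated libraries. Its difference of -0.17 ± 0.21 was 0.05 without AC replicate 1. Arsb, which acts on dermatan and chondroitin sulfate, showed the same outlying library at 9.88 TPM, with 17.3 and 15.5 TPM in AC replicates 2 and 3 and 17.97, 12.8 and 15.8 TPM in untreated libraries. Galns, of keratan and chondroitin sulfate breakdown, averaged 88.6 ± 10.1 TPM in AC libraries and 91.3 ± 10.3 TPM in untreated libraries. Arsa, which acts on sulfatide, averaged 39.2 ± 3.33 TPM in AC libraries and 39.3 ± 3.37 TPM in untreated libraries.

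The lipid hydrolases went both ways. Of 7, 3 had higher and 4 lower means in AC libraries (4 higher and 3 lower with median-of-ratios scaling), with a median log2 difference of -0.04. Their summed level was 1717, 2296 and 1937 TPM in AC libraries and 2021, 1935 and 2027 TPM in untreated libraries. The AC libraries held both the highest and the lowest sum, with an SD of 292 TPM against 51.7 TPM among untreated libraries.

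**Figure D2:**
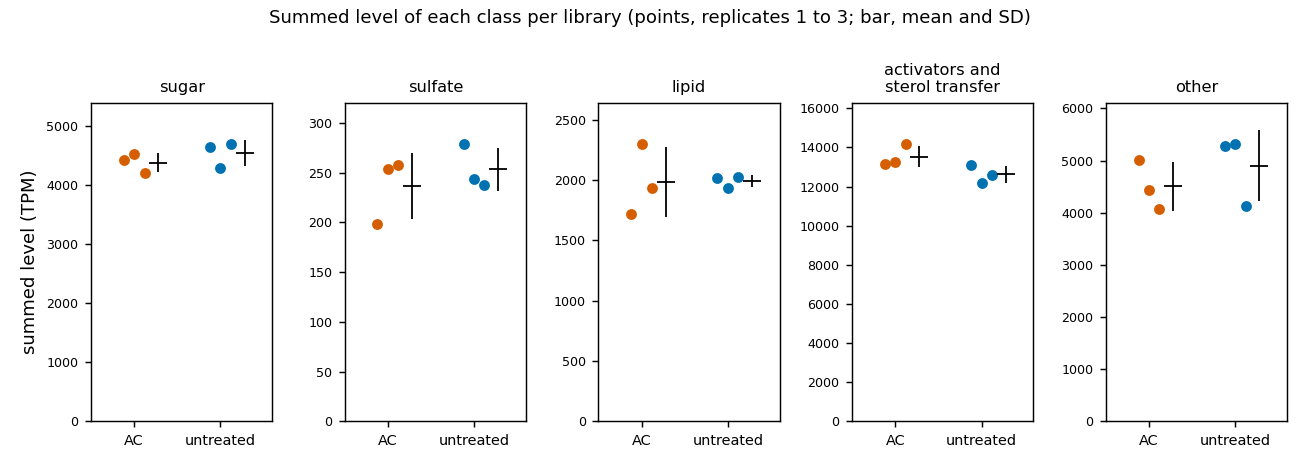
Summed level (TPM) of each class in the 3 AC and the 3 untreated libraries, with the mean and SD (n = 3 each) beside the points. Groups overlap in the sugar, sulfate, lipid and other panels. The activator and transfer panel is mostly Psap, with AC libraries at 13157 to 14153 TPM and untreated libraries at 12178 to 13078 TPM. Psap by itself did not separate the groups.

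Lipa (chromosome 19, 34492318 to 34527474), the acid lipase that frees cholesterol and fatty acids from engulfed sterol esters and triglycerides, had the widest range of them in TPM. It had 559, 964 and 783 TPM in AC libraries and 642, 615 and 809 TPM in untreated libraries. AC replicate 1 was the lowest and AC replicate 2 the highest of all 6. The difference of 0.13 ± 0.22 was -0.05 without AC replicate 2 and 0.35 without AC replicate 1. Asah1 (chromosome 8, 41340197 to 41374773), the acid ceramidase, followed the same order among AC libraries, at 383, 582 and 431 TPM, against 464, 469 and 479 TPM in untreated libraries. The untreated values fell within the AC range, and the difference was -0.04 ± 0.17.

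Pla2g15 (chromosome 8, 106150399 to 106164715), the lysosomal phospholipase, had 436, 379 and 421 TPM in AC libraries against 555, 487 and 405 TPM in untreated libraries. Untreated replicate 3 lay below 2 of the AC libraries. At -0.22 ± 0.15 (95% interval -0.57 to 0.13, unadjusted p = 0.193 by limma) this was the smallest p among all 33 members, and the difference was -0.11 without untreated replicate 1. Smpd1, the acid sphingomyelinase, averaged 33.5 ± 1.72 TPM in AC libraries and 35.4 ± 2.02 TPM in untreated libraries. Galc, the galactosylceramidase, had 26.5, 40.8 and 38.3 TPM in AC libraries and 37.8, 30.4 and 36.0 TPM in untreated libraries. Ppt1, a thioesterase that removes palmitate from proteins, averaged 198 ± 22.6 TPM in AC libraries and 214 ± 15.1 TPM in untreated libraries. Its relative Ppt2 had 85.7, 74.6 and 53.4 TPM in AC libraries and 64.1, 73.7 and 67.2 TPM in untreated libraries, so that AC replicates 1 and 3 were the extremes. Ppt2 shares exon sequence with Gm20460 on the same strand, and its reads are uncertain.

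Psap (chromosome 10, 60277627 to 60302597) yields the saposins, which hand sphingolipids to their hydrolases. It had 11545, 11787 and 12679 TPM in AC libraries against 11618, 10716 and 10948 TPM in untreated libraries. Only untreated replicate 1 reached into the AC range, above AC replicate 1. The difference was 0.11 ± 0.15 (95% interval -0.24 to 0.47), stayed between 0.07 and 0.15 on leaving out 1 library, and had an adjusted p of 1.0 by limma. Psap held 47.1, 47.6 and 51.5% of the members' summed TPM in AC libraries and 45.9, 44.7 and 46.2% in untreated libraries. With Psap in it, the summed level of the activator and transfer class was 13529 ± 544 TPM in AC libraries and 12621 ± 450 TPM in untreated libraries (SD, n = 3 each), and every AC library lay above every untreated one. The margin was narrow, with 13157 TPM in AC replicate 1 and 13078 TPM in untreated replicate 1. Between these libraries AC was lower for Psap, Gm2a and Npc1 and higher for Npc2 (1353 against 1154 TPM). No member of the class separated the groups by itself, and the sums of the other classes overlapped. Of all single tested genes, 0.936% were higher in AC libraries without overlap. No test was run on this sum. Without Psap the members summed to 12633 ± 595 TPM in AC libraries and 13220 ± 479 TPM in untreated libraries.

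Gm2a, the activator that presents GM2 ganglioside to hexosaminidase, averaged 233 ± 9.79 TPM in AC libraries and 245 ± 18.7 TPM in untreated libraries. Npc2 and Npc1 pass cholesterol from the lysosome lumen to its membrane. Npc2 had 1353, 1207 and 1158 TPM in AC libraries and 1154, 1186 and 1343 TPM in untreated libraries, for a difference of 0.01 ± 0.14. Npc1 had 32.5, 53.3 and 70.5 TPM in AC libraries and 65.6, 47.8 and 51.8 TPM in untreated libraries. AC replicates 1 and 3 were the lowest and highest of the 6 for Npc1, and its interval of -0.76 to 0.49 was the widest of all members.

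Among the other members, Grn, the progranulin gene, had 4633, 3936 and 3614 TPM in AC libraries and 4799, 4867 and 3717 TPM in untreated libraries, and replicate 3 was the lowest of each group. Its difference was -0.13 ± 0.18. Tpp1 (chromosome 7, 105744811 to 105752235), a lysosomal tripeptidyl peptidase, had 188, 290 and 249.5 TPM in AC libraries against 241, 217 and 194 TPM in untreated libraries. The difference of 0.14 ± 0.18 was the highest of all members, and it was 0.31 without AC replicate 1, the lowest of the 6 libraries for this gene, and -0.0008 without AC replicate 2. Acp2, the lysosomal acid phosphatase, had 157, 177 and 186 TPM in AC libraries and 208, 195 and 182 TPM in untreated libraries. AC replicate 3 lay above untreated replicate 3 and the other AC libraries below all untreated ones, and the difference was -0.17 ± 0.13. Acp5, the tartrate-resistant acid phosphatase that also marks osteoclasts, averaged 31.7 ± 2.08 TPM in AC libraries and 30.3 ± 3.11 TPM in untreated libraries. The 9 osteoclast markers summed to 261 to 559 TPM in AC libraries and 231 to 465 TPM in untreated libraries, mostly from Atp6v0d2. Over all libraries Ctsk stood at 17.4 to 26.8 TPM, Nfatc1 at 16.7 to 27.8 TPM and Itgb3 at 1.55 to 4.46 TPM. Mmp9 and Dcstamp lay on both sides of 1 TPM, and Calcr, Ocstamp and Oscar stayed below it.

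**Figure D3:**
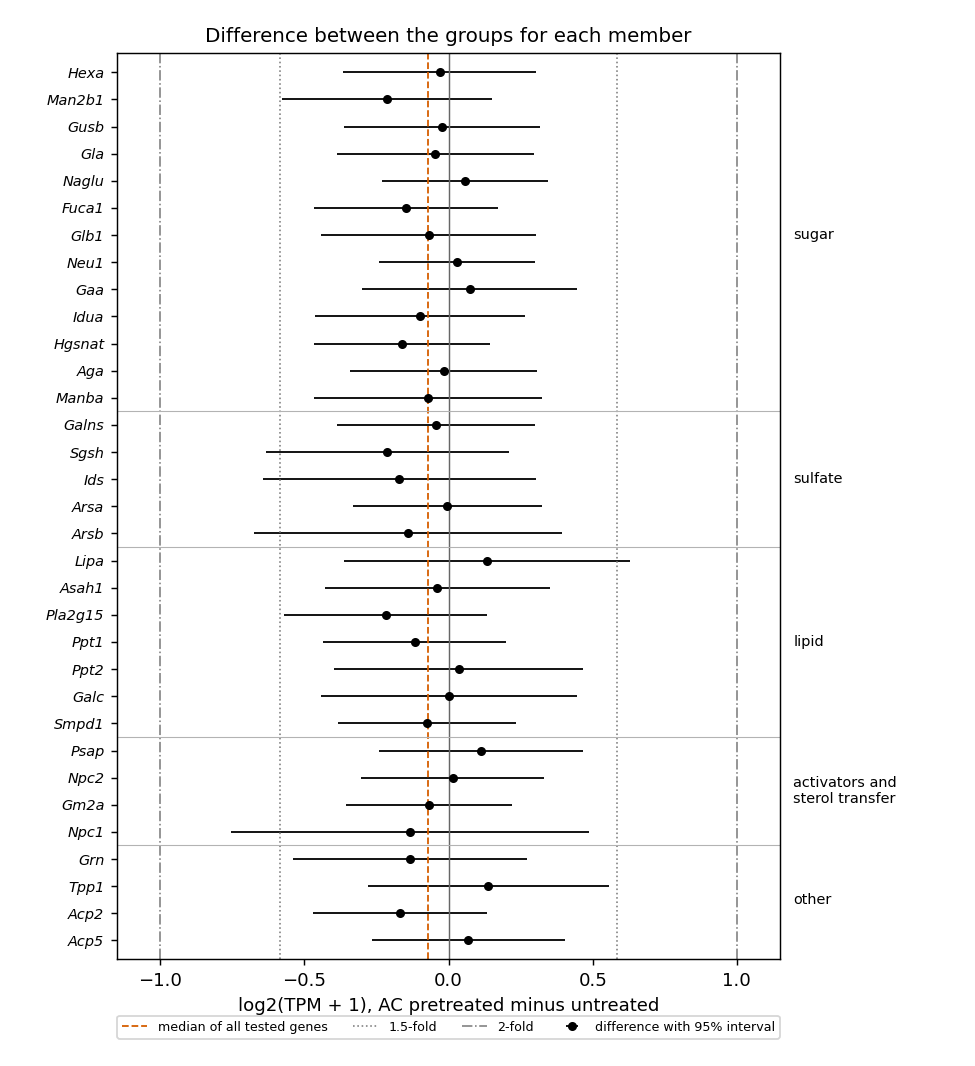
Log2 difference (AC minus untreated, log2(TPM + 1) scale) of each member with its 95% interval from limma-trend. Every interval spans 0 and stays inside the 2-fold lines, and those of Ids, Sgsh, Arsb, Lipa and Npc1 cross a 1.5-fold line.

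Members varied about as much among AC libraries as among untreated libraries. The median SD of a member was 0.16 log2 units in AC libraries and 0.14 in untreated libraries. Over all tested genes it was 0.29 in AC and 0.16 in untreated libraries, and over the 6295 tested genes with a mean at least that of Arsb 0.25 in AC and 0.14 in untreated libraries. AC replicate 1 was the lowest library for 17 of the 33 members (51.5%), close to its share over all tested genes (47.5%). Untreated replicate 1 was the highest for 14 members (42.4%), against 23.6% over all tested genes. No test was run on these shares. Untreated replicate 1 is also the library with the low Lyz2 level, and whether these are linked was not tested.

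**Figure D4:**
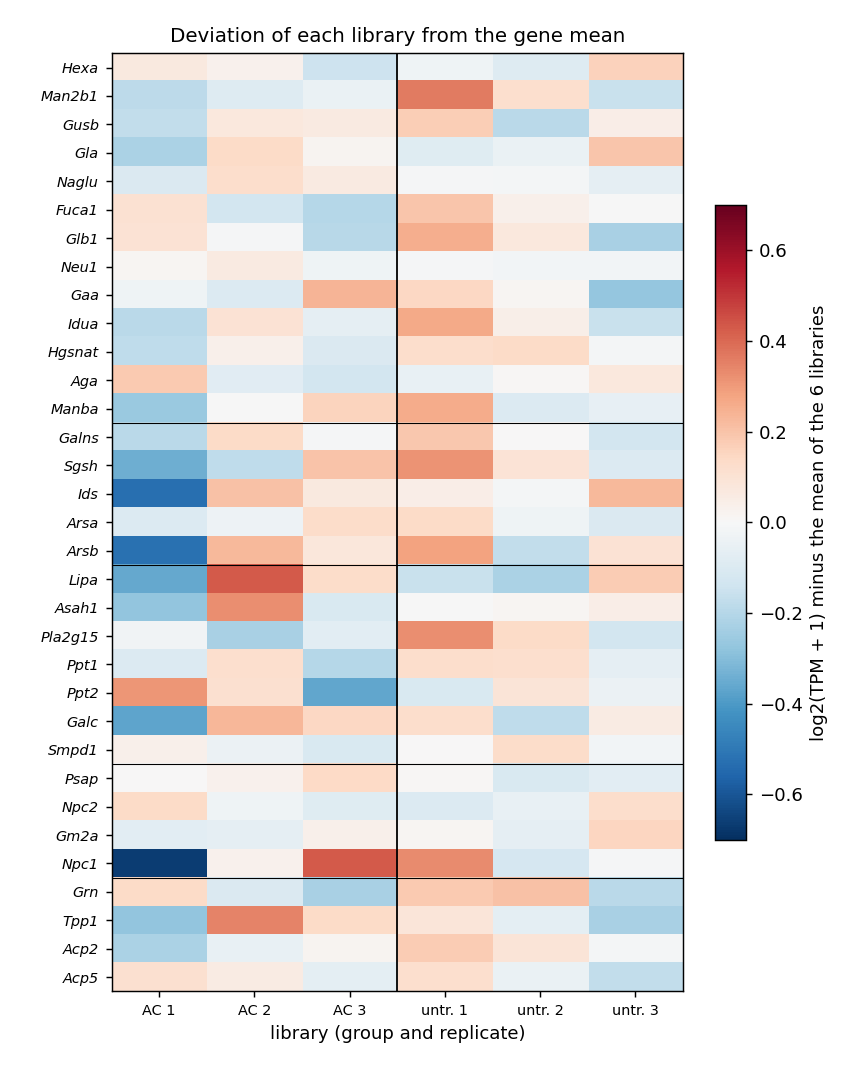
Deviation of each library from the gene's mean over the 6 libraries (log2(TPM + 1), colour), with AC libraries left of the line and untreated libraries right of it. The deepest blue cells are Npc1, Ids and Arsb in AC replicate 1, at -0.66, -0.53 and -0.52.

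The deviations ran with transcript length, with the largest coefficients in AC replicates 1 and 3. Across the 33 members, Spearman's rho between merged exon length and deviation was -0.65 in AC replicate 1 and 0.59 in AC replicate 3. The same was seen over 12383 tested genes, with rho of -0.47 in AC replicate 1 and 0.38 in AC replicate 3, and between -0.20 and 0.11 in the other libraries. Among the members rho was 0.12 in AC replicate 2, and 0.34, -0.33 and 0.15 in untreated replicates 1, 2 and 3. All members of a library share its RNA and depth, so the coefficients describe the libraries and carry no p. In AC replicate 1 the 16 members longer than 3680 bases had a median deviation of -0.24 and the 16 shorter than that 0.02. In AC replicate 3 these medians were 0.08 for the longer and -0.11 for the shorter members. Npc1, Galc and Arsb, with 11317, 14879 and 6037 exon bases, are among the longest. The part of transcript length in the group differences was not tested.

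**Figure D5:**
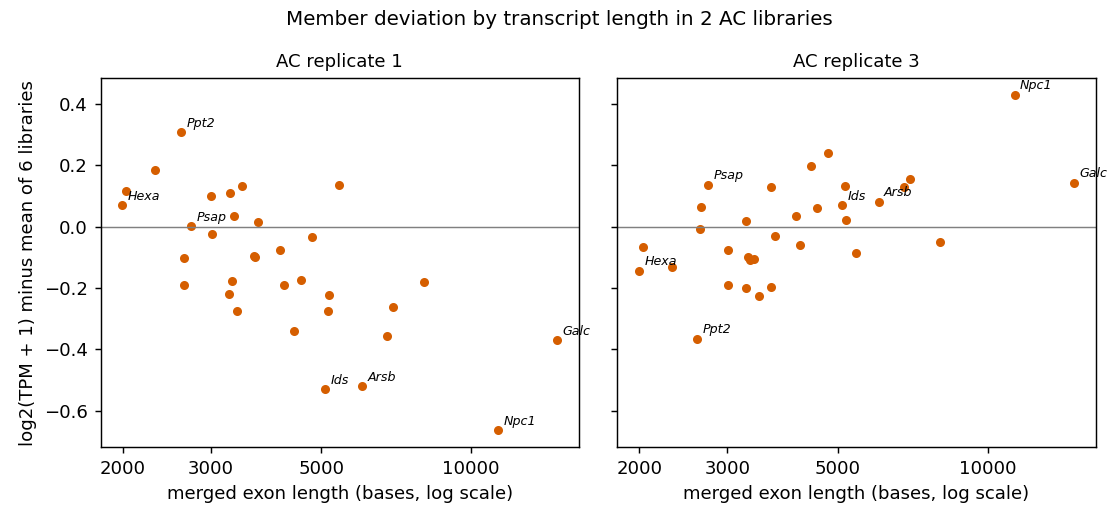
Deviation of each member from its mean over the 6 libraries (log2(TPM + 1)) against merged exon length (bases, log axis) in AC replicate 1 (left) and AC replicate 3 (right). Long members such as Npc1 and Galc sit low in AC replicate 1 and high in AC replicate 3, and Ppt2 does the opposite.

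Other genes of the same pathway were read from a list of 22 further lysosomal glycan and lipid enzymes and their partners. Of these, 0 passed the test, 7 had higher and 15 lower means in AC libraries, and the median log2 difference was -0.07, that of all tested genes. The groups did not overlap for 4 of the 22, with 1 gene higher and 3 lower in AC libraries, where 0.936% and 3.48% of all tested genes did so. Naaa, an amidase of N-acylethanolamines, had 39.5, 43.9 and 39.3 TPM in AC libraries and 54.3, 52.4 and 53.4 TPM in untreated libraries, so every AC library lay below every untreated one. Its difference of -0.38 ± 0.13 had an unadjusted p of 0.0185 and an adjusted p of 1.0 by limma. Further genes without overlap were Pld3, with a difference of 0.23 ± 0.13, and Smpdl3b, with -0.24 ± 0.18, both named after their values were seen.

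Of 7 genes that mature lysosomal enzymes or carry them to the lysosome, 0 passed. In AC libraries 1 had a higher and 6 a lower mean, with a median log2 difference of -0.11. Over all tested genes 70.6% had a lower mean and the median was -0.07. M6pr, a mannose-phosphate receptor of this route, had 240, 270 and 262 TPM in AC libraries and 279, 272 and 300 TPM in untreated libraries. Its groups did not overlap, which held for 1 of the 7, and 3.48% of all tested genes were likewise lower in AC libraries without overlap. The M6pr difference was -0.14 ± 0.12. Gnptg, a subunit of the enzyme that starts the mannose-phosphate tag, differed by -0.15 ± 0.13.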

How the data were processed

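The table the authors deposited is named for TPM. Its values are treated here as a signal, since the deposited columns summed to between 54732 and 92831 and not to 1000000. Every column was rescaled to that total. Tools listed in the submitters' processing notes are featureCounts 2.0.3, Subread and STAR 2.7.10a, and the build listed is mm10, without their roles. Annotation, strand setting and filters were not stated, so reads of overlapping or antisense genes cannot be told apart. Multiplied by merged exon lengths (GENCODE M21) and divided by 8.57, the deposited signal gave whole reads in all libraries for 98.51% of 23829 genes (tolerance 0.02 reads), including all 33 members. The signal was therefore read as reads per exon base, not scaled for depth, and 53186 symbols matched a length.

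A gene entered the test if 3 or more libraries reached 1 TPM, which left 12603 genes with all 33 members among them. These were tested with limma 3.58.1 (R 4.3.3, trend) on log2(TPM + 1), AC minus untreated, 2-sided, without a replicate block. The procedure was also run on simulated counts that held no trend with transcript length. That run does not show how it behaves on libraries like these. The members and lists were chosen with earlier results of these data known. In each class the 2 most abundant members, and those of smallest p in each direction, were to be described in detail, and 2 genes per pathway list. A pathway gene named by this rule is not reported here. Other members were described as well, after their values were seen. No 2 replicates agreed within sampling noise (chi-square). Alternatives were 2 pseudocounts, 2 filters, another scaling, limma without trend, voom on recovered reads, the replicate block and leaving out each library. The placental settings were chosen after seeing the data. Columns left unused numbered 0. Other steps ran in Python 3.11.15 (matplotlib 3.10.9, scipy 1.17.1, numpy 2.4.6, pandas 2.3.3).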

Additional observations from a re-analysis of the deposited data

How the results depend on the processing

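No member passed under any alternative with a test, and the signs of many members depend on scaling or on single libraries. Leaving out 1 library turned the sign of 19 members and moved 32 by over 1.5 times. Every member had at least 355 reads in each library, and depth was not varied. Leaving out libraries changed their number and their identity together, so what limits the calls was not tested. The cause of the changes below was not tested.

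Over all tested genes, limma without trend called 1 (Gm22279), and the other alternatives 0. The count of members without overlap, 0 as reported, was 3 with median-of-ratios scaling (Naglu, Psap and Acp2; 9.09%, against 3.86% of all tested genes) and 2 by voom (Naglu and Psap; 6.06%, against 3.81%). Fewer libraries separate more genes. The count was 12 within the 4 placental libraries, or 36.4% of members against 36.3% of all tested genes, and 0 to 7 on leaving out 1 library. The 7, without AC replicate 1, are 21.2% of members against 22.8% of all tested genes, and no library left out gave the members a share above that of all tested genes. The activator and transfer median was 0.0426 with median-of-ratios scaling, 0.0478 between replicate 3 of each group and -0.0622 to 0.0474 on leaving out 1 library, and the sulfate median between replicate 3 of each group was 0.12. Between those libraries 15 members had the opposite sign.

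With median-of-ratios scaling the members shifted upward by a median of 0.07, and the sign turned for Hexa (0.0389), Gla (0.0235), Glb1 (0.0009), Gusb (0.0458), Aga (0.0516), Arsa (0.0635), Galns (0.0261), Asah1 (0.0303) and Gm2a (0.0019). By voom on recovered reads it turned for Hexa (0.0131), Gusb (0.0196), Aga (0.0281), Arsa (0.0378) and Asah1 (0.0033). Within the 4 placental libraries it turned for Hexa (0.108), Gla (0.0212), Gaa (-0.1441), Aga (0.0766), Galc (-0.0411) and Asah1 (0.0175).

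On leaving out 1 library, signs turned within these ranges: Hexa -0.0826 to 0.0441, Gla -0.1235 to 0.0527, Gaa -0.0425 to 0.1642, Glb1 -0.1982 to 0.0433, Gusb -0.1227 to 0.0581, Manba -0.167 to 0.0408, Idua -0.2024 to 0.0093, Aga -0.1126 to 0.0445, Ids -0.3159 to 0.0516, Arsa -0.0696 to 0.0614, Arsb -0.2906 to 0.0834, Galns -0.1206 to 0.0426, Galc -0.1133 to 0.1877, Asah1 -0.2109 to 0.0899, Lipa -0.0477 to 0.3452, Ppt2 -0.11 to 0.2265, Npc1 -0.3828 to 0.1641, Npc2 -0.0506 to 0.0806 and Tpp1 -0.0008 to 0.3104.

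Replicate numbers are shared between the groups. Deviations of same-numbered libraries correlated at -0.06, 0.01 and 0.17 for numbers 1, 2 and 3, so the numbers were not taken as pairs. Between unlike numbers the coefficients ran from -0.34 (AC replicate 3, untreated replicate 2) to 0.34 (AC replicate 1, untreated replicate 2). The placental transcripts do follow the numbers, with replicates 1 and 2 of both groups holding them. With the replicate block 0 genes and 0 members were called.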
